A study of Drosophila melanogaster with 2 samples.

Results

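Binding of the nuclear receptor Hr78 was examined at 32 Drosophila melanogaster genes that build the tracheal system, out of 13945 protein-coding genes on the 6 chromosome arms. The genes were a named list with 3 classes: 13 fate regulators, 3 branching signal genes and 16 apical matrix genes. All 32 were found in the annotation, where dys (dysfusion) has the symbol dysf. A gene counted as bound where a peak summit lay within 1000 bp of any of its annotated transcription start sites or inside its span. The measurements came from chromatin immunoprecipitation and sequencing (ChIP-seq) of whole embryos of mixed sex, aged 8 to 16 h per the source names, from 1 transgenic line (Hr78-GFP) whose Hr78 protein carries eGFP fused to the C-terminal end. The precipitation used an antibody against GFP. There was 1 group of 2 biological replicates, numbered 1 and 3, and no other genotype, treatment or age, so no comparison between conditions was possible. The sources used here do not give the promoter that drives the tagged protein or say whether the line keeps untagged Hr78.

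The files held 4 peak lists. The optimal list, 5723 peaks kept by the authors for reproducibility between the replicates, had signals from 272 to 22397 with a median of 441. The list called on both replicates together (the pooled list) and the list of each replicate held 30000 peaks each, and the top 5723 of the pooled list were the optimal peaks. Signal is the peak caller's own score against a control. Its scale is not shared by the lists, so ranks are given beside it, with 1 as the highest. Read depth is unknown, and the intervals given for shares cover counting error only. Tracheal cells are one tissue among many in a whole embryo, and the lists do not show in which cells a site was occupied or whether a gene was expressed.

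The tracheal system is the branched epithelial network that carries air to the tissues of the fly. In the embryo, clusters of ectodermal cells are set aside by Trachealess and its partners, invaginate, and send out branches toward sources of the fibroblast growth factor (FGF) Branchless, which acts through the receptor Breathless. The cells then secrete a transient chitin matrix and a lasting cuticle into the lumen, and both set the diameter and length of the tubes. Hr78 is an orphan nuclear receptor related to the vertebrate testicular receptors and is known for a part in tracheal structure and growth in the larva. Receptors of its class bind hexamers of the AGGTCA type.

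These windows are shown because they carry the highest optimal summit of a tracheal gene together with a receptor hexamer, except the last, which is the window of the tracheal master gene trh and held none. Each is the plus strand of genome release 6 (dm6), 5′ to 3′, with 50 bp to either side of the summit, taken from the RefSeq copy of that release. Capitals mark AGGTCA or a related hexamer (AGTTCA at stumps, bnl and dpy, GGGTCA at kkv and uif, and GGTTCA at dys), with the reverse complement where the hexamer is on the minus strand.
ttk, chr3R:31713406-31713506: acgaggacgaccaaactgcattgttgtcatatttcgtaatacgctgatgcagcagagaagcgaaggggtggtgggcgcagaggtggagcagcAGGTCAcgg
dys, chr3R:26099062-26099162: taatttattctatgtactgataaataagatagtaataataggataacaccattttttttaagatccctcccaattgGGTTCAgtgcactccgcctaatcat
stumps, chr3R:14591255-14591355: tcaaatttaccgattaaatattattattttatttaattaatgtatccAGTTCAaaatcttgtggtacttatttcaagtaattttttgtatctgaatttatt
bnl, chr3R:19807262-19807362: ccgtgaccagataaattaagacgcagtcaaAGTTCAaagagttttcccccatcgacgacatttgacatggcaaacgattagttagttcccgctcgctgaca
kkv, chr3R:5389046-5389146: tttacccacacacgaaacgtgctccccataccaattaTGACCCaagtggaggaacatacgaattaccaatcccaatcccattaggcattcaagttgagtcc
dpy, chr2L:4614335-4614435: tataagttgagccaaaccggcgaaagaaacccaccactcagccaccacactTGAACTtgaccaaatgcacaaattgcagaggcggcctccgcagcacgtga
uif, chr2L:6986093-6986193: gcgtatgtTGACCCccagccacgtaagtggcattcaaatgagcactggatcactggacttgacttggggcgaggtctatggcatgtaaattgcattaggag
trh, chr3L:377636-377736: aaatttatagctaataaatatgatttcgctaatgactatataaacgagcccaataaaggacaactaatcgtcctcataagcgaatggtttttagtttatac

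In the ttk window, upstream of the gene, an AGGTCA was centred 44.5 bp from the summit. In the stumps window, in intron 2, an AGTTCA was centred 0.5 bp from the summit, the closest of the 7 hexamers printed. The dpy window, upstream of the gene, had an AGTTCA on the minus strand 3.5 bp from the summit, and the kkv window, in intron 1, had a GGGTCA on the minus strand 10.5 bp away. For bnl, in intron 2, an AGTTCA lay 17.5 bp from the summit. In dys, upstream of the gene, a GGTTCA lay 28.5 bp away, and in uif, in intron 3, a GGGTCA on the minus strand lay 39.5 bp away. A match of letters is a description of the window and does not show that the receptor touched it.

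Of the 32 tracheal genes, 17 (53.1%, exact 95% interval 34.7 to 70.9) had an optimal summit near a start site or inside the gene, where the share of all protein-coding genes was 21.0% (2929 of 13945). Counting only summits within 1000 bp of a start site, 15 of the 32 (46.9%) were bound, and the background was 16.5% (2298 genes). In the longer pooled list 29 of the 32 (90.6%) had a summit near a start site, against 38.6% of all genes. The same 29 were counted when summits inside the genes were added, against 41.1%. By class, the counts were 6 of 13 fate regulators, 2 of 3 branching signal genes and 9 of 16 apical matrix genes. In the pooled list the counts were 13 of 13, 2 of 3 and 14 of 16. No test of the list was made, because its genes were proposed with results of these data known.

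**Figure D1:**
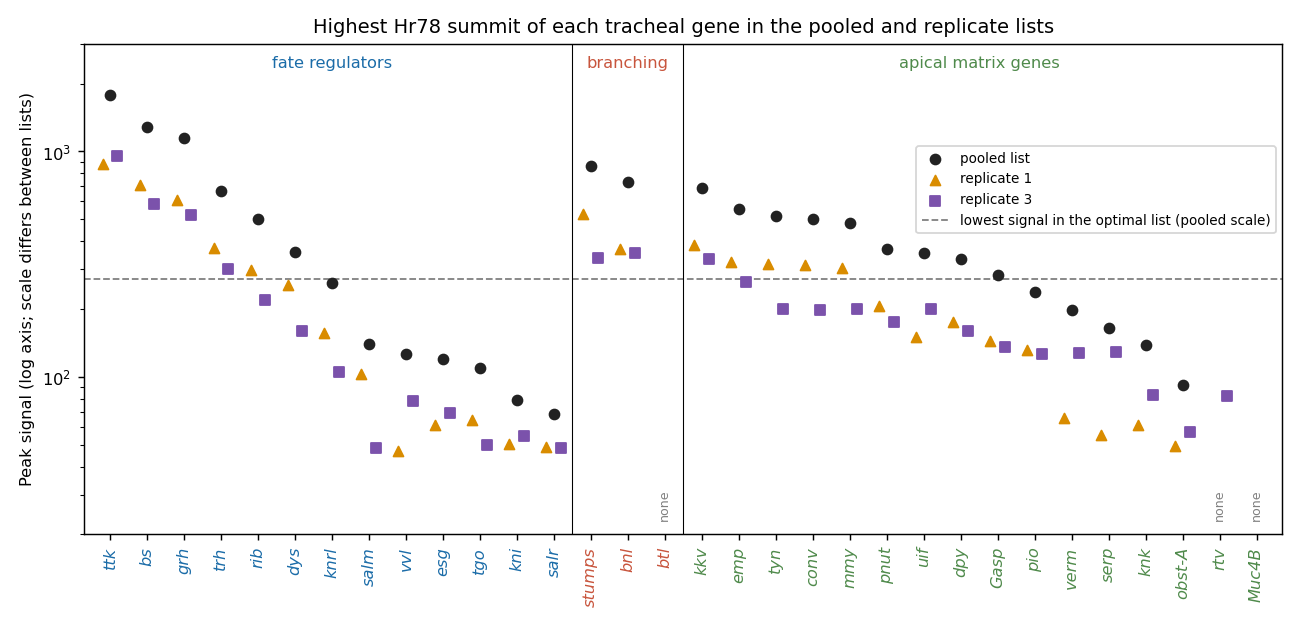
Highest peak signal of each of the 32 tracheal genes (log axis) in the pooled list (circles), the replicate 1 list (triangles) and the replicate 3 list (squares), by class and in order of the pooled signal. The dashed line is the lowest signal of the optimal list, 272 on the pooled scale; 17 genes lie above it, led by ttk at 1787, and "none" marks the 3 genes without a pooled summit.

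Among the fate regulators the signal ran from the strongest site of all 32 genes to genes with weak peaks only. Tramtrack (ttk), a zinc finger repressor that acts in many embryonic tissues, the trachea among them, had its highest summit 411 bp upstream of its first start site, at 3R:31713456, where the signal was 1787. In replicate 1 the peak there had a signal of 885 and rank 268, and in replicate 3 it had 952 and rank 143. Both replicates thus placed it among their highest peaks, and ttk ranked 214 among the 5737 genes with a pooled summit. A second summit in the same region, 206 bp upstream of the start site, had a signal of 378. Further summits lay in intron 1, at 3R:31724654 (465, 342 bp before the second start site) and at 3R:31726687 (273, 285 bp past the fourth). The last of these was the weakest of all summits at these genes, just inside the lowest signal of the optimal list, 272.

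Blistered (bs), the fly serum response factor, which terminal tracheal cells need for their outgrowth, had its highest summit in intron 2 at 2R:24350961, 7259 bp past its second start site. The signal was 1285 in the pooled list, 713 in replicate 1 and 583 in replicate 3, with ranks of 405, 421 and 410. The summit was 428 bp from the start site of CG44812, a gene within bs, so it cannot be assigned to bs alone. A further intronic summit at 2R:24369686 had a signal of 636, and a weak one, 85 bp upstream of the first start site, had 318.

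Grainy head (grh), a factor of epidermal barrier genes that also limits the apical membrane of tracheal tubes, showed the same arrangement. Its highest summit was in intron 2 at 2R:17804980, 2113 bp past the third of its 5 start sites, with a signal of 1149. Replicate 1 gave 611 (rank 584) and replicate 3 gave 524 (rank 515). The summit 82 bp upstream of its first start site was weaker, at 374. The other summits were one 205 bp beyond the highest, at 325, and one before the fourth start site, at 292.

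Trachealess (trh), the PAS-domain factor that sets tracheal fate, had 1 optimal summit, at 3L:377686 in intron 4. It lay 370 bp before the second start site of the gene, which is 15317 bp past the first. The signal was 667 in the pooled list (rank 1441), 373 in replicate 1 (rank 1514) and 300.5 in replicate 3 (rank 1463). The replicates ranked this site nearly alike. The first start site of trh had no optimal summit.

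Ribbon (rib), a BTB-domain factor needed for tube cells to migrate and change shape, held more optimal summits than any other of the 32 genes, 5 in a span of 11.3 kb. They lay in 2 regions of intron 1. The first held summits at 1551, 1810 and 2208 bp past the first start site with signals of 406, 467 and 499.9, and the second held summits 637 and 263 bp before the second start site with signals of 424 and 303. Each of the 3 summits of the first region was given the highest-signal replicate peak covering it, 285 in replicate 1 and 220.0 in replicate 3. Their replicate values are therefore not separate measurements. Dysfusion (dys), the PAS-domain factor of fusion cells that join branches, had a signal of 356 at 3R:26099112, 401 bp upstream of its start site. There the replicates differed in rank, 2856 in replicate 1 and 7990 in replicate 3. Its other summit, in intron 6 at 3R:26081719, had a signal of 308.

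The other 7 fate regulators had pooled summits only. Knirps-like (knrl), one of a pair of receptor-like zinc finger factors of branch identity, came closest to the optimal list: its highest summit, 19017 bp past the start site at 3L:20601642, had a signal of 262 and rank 6012. It held 12 pooled summits, with a highest signal of 157 in replicate 1 and 105 in replicate 3. Its partner kni had 78.7 at 3L:20695540, 162 bp from a start site. The dorsal trunk selectors salm and salr had 140.5 (2L:11445893, 279 bp) and 68.4 (2L:11363324, 1965 bp). The signal of salr was the lowest highest summit of any of the 29 genes with a pooled summit.

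The POU factor gene vvl, which acts with trh in the placode, had 127 at 3L:6790035, 123 bp from its start site. In replicate 1 its highest peak had 46.8 (rank 21740) and in replicate 3 it had 77.9 (rank 10705). The fusion cell gene esg, of the Snail family, had 119.8 at 2L:15333781, 85 bp from its start site. The gene tgo, whose protein is the obligate partner of Trachealess and Dysfusion, had 109.6 at 3R:9019858, 164 bp from its start site. An optimal summit of signal 297 lay 1763 bp outside tgo, and for the other 6 genes the nearest optimal summit was 5387 bp (knrl) to 45198 bp (esg) from the gene. Of the PAS-domain pair that starts tracheal fate, trh thus had an optimal summit and tgo did not.

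The branching signal genes differed from each other. Stumps, the intracellular adaptor of the FGF receptors, had its highest summit in intron 2 at 3R:14591305, 315 bp before the second of its 5 start sites, which is 14403 bp from the first. The signal was 865 in the pooled list (rank 901), 529 in replicate 1 (rank 778) and 337 in replicate 3 (rank 1191). A weak summit of signal 273 lay in intron 5. Its first start site had no optimal summit, as at trh.

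Branchless (bnl), the FGF ligand that guides the branches, had 4 optimal summits along its 42.7 kb. The highest was in intron 2 at 3R:19807312, 29505 bp past the start site, with a signal of 734 and replicate values of 369 (rank 1545) and 355 (rank 1091). Other summits of intron 2, at 3R:19824009 and 3R:19802343, had signals of 356 and 327, and the summit 59 bp upstream of the start site had 319. The pooled signal at the promoter was thus the lowest of the 4, by a small margin. Against the summit at 3R:19802343 it was lower in replicate 1 (192 against 205) but higher in replicate 3 (134 against 118). With 35 pooled summits, bnl held the most of any of the 32 genes.

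Breathless (btl), the FGF receptor of tracheal cells and the classical target of Trachealess, had no summit in any of the 4 lists. The nearest optimal summit was 9862 bp outside the gene, at 3L:14093091. A gene without a listed summit can still hold binding below the lists' limit, and that was not detectable here.

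**Figure D2:**
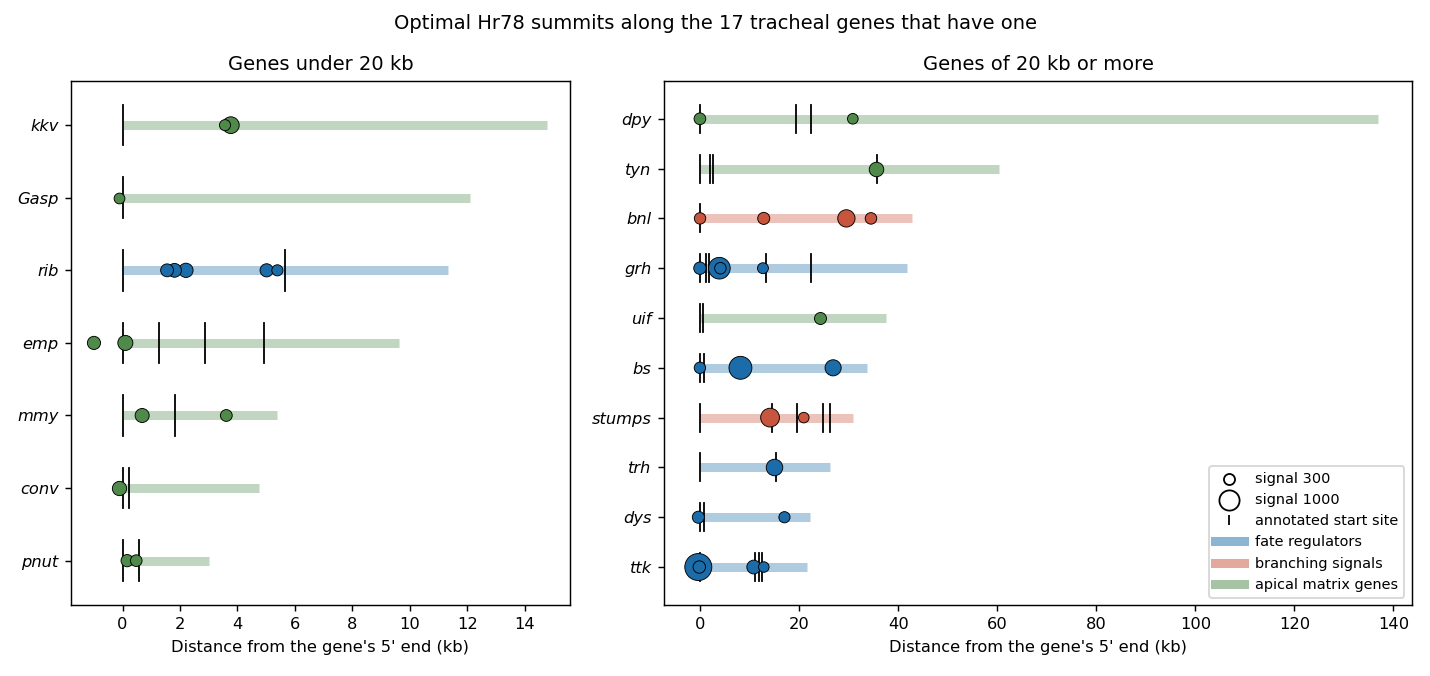
Positions of the 39 optimal summits along the 17 tracheal genes that have one, in kb from the 5′ end of each gene, with genes under 20 kb on the left and longer genes on the right. Bars are gene spans, ticks are annotated start sites, circle area follows the signal; the largest circles of bs, grh, rib, bnl, kkv and uif lie inside the gene away from every tick, and those of trh, stumps and tyn lie at internal start sites.

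The bound apical matrix genes covered chitin synthesis, chitin-binding and zona pellucida (ZP) domain proteins and proteins of the apical membrane, and their signals were lower than those of the leading regulators. The highest was krotzkopf verkehrt (kkv), the chitin synthase of the trachea and epidermis, with 688 at 3R:5389096 in intron 1, 3770 bp past its start site. Replicate 1 gave 383 (rank 1439) and replicate 3 gave 335 (rank 1200). A second summit 202 bp away had 301 and lay inside a peak of replicate 1 but not of replicate 3. Mummy (mmy), the enzyme that makes the activated sugar for chitin, had 483 in intron 1 at 2L:6473221, 683 bp past its start site, and 342 in intron 2. At the first site replicate 1 gave 304 (rank 2173). That summit was not inside a replicate 3 peak, and the one with the nearest summit, within 200 bp, had 157 (rank 4246).

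Among Gasp, obst-A, verm, serp, knk and rtv, whose products bind, modify or organise chitin, only Gasp had an optimal summit. Gasp, a secreted chitin-binding protein of the lumen, had a signal of 283 at 3R:6100995, 108 bp upstream of its start site, close to the list's lower end. Its replicate values were 144 (rank 6584) and 136 (rank 5258). For the chitin deacetylases vermiform (verm) and serpentine (serp), which restrain tube length, the pooled signals were 198 at 3L:19694264 and 165 at 3L:19707907. Both were lower in replicate 1 than in replicate 3, where verm had 65.6 (rank 16279) against 128 (rank 5718) and serp had 55.1 (rank 19012) against 129 (rank 5644). Taken alone, the 5723 highest peaks of replicate 3 would include both genes, and those of replicate 1 neither.

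Knickkopf (knk), which organises the chitin fibrils, had 138 at its start site at 3R:10125664, and obst-A, another chitin-binding protein, had 91.8 at X:20239875. Retroactive (rtv), which acts with knk, had a single peak, of signal 82.2 and rank 10106, in the replicate 3 list and none in the other lists. Muc4B, a mucin gene, had no summit in any list. These 4 genes span 1.51 to 3.36 kb, among the shortest of the 32.

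Of the ZP-domain proteins that anchor the apical surface, trynity (tyn) and dumpy (dpy) had optimal summits and piopio (pio) did not. The tyn summit, at X:175766 in intron 3, was 207 bp before the fourth start site, which is 35655 bp from the first, with 518 in the pooled list, 315 in replicate 1 and 200.9 in replicate 3. Dumpy, a giant filament protein of the lumen, had 335 at 2L:4614385, 85 bp upstream of its first start site, and 278 in intron 3, at the lower end of the list. In its span of 136.8 kb, the longest of the 32 genes, these were the only optimal summits among 21 pooled ones. The pio signal of 237, 186 bp from its start site at 2R:24581059, had rank 6864 in the pooled list and was outside the optimal list.

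The 4 other genes of this class encode neither chitin enzymes nor ZP proteins. Uninflatable (uif), a large apical membrane protein of tracheal cells, had a summit in intron 3 at 2L:6986143, 23766 bp past its second start site, with 354 in the pooled list, 150.4 in replicate 1 and 200.9 in replicate 3. Emp, a scavenger receptor of the CD36 family, had 557 at 2R:24985972 in its 5′ UTR and 424 at 995 bp upstream. The first was 72 bp from the start site of CG3829, so these summits are shared. Convoluted (conv), a leucine-rich repeat protein needed for the luminal matrix, had 501 at 2R:14270607, 122 bp upstream, and this summit was 51 bp from the start site of Sps1. The septin pnut, a cytoskeletal protein and not a matrix component, had 368 and 333 in its 5′ UTR.

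The 39 optimal summits at these genes lay in 35 regions, 19 at fate regulators, 6 at branching signal genes and 14 at matrix genes. Introns held 26, upstream sequence 10 and 5′ UTRs 3, and none was in coding sequence. The same breakdown is not given for all optimal summits, so these counts do not show a trait particular to the tracheal genes. Within 1000 bp of a start site there were 22, at a median distance of 235 bp, and 17 were inside the gene beyond it, at a median of 3770 bp and up to 34474 bp. For 6 of the 17 bound genes the highest summit was one of these distant ones. Their median signal was 374, and 15 of the 39 exceeded the median of the optimal list, 441. As neighbours of the limits, the emp summit at 995 bp was just inside the start-site window, and summits 1127 bp from kkv and 1140 bp from ttk were just outside it.

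Of the 22 start-site summits, 8 were nearest to an internal start site, one more than 1000 bp from the gene's first. These 8 were in 6 genes. Among the tracheal genes that have such a start site, 9 had a start-site summit, and the 8 were 53.3% of their 15. For all protein-coding genes with such a start site the share was 58.3% (761 of 1305), so the placement at internal starts was near that of other genes.

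Gene length moved with the counts. The tracheal genes had a median span of 11.3 kb, against 2.17 kb for all protein-coding genes, and a longer gene offers more places for a summit. Among genes under 5 kb, 2 of 10 tracheal genes were bound (20%, interval 2.52 to 55.6), conv and pnut, and the background was 12.9%. From 5 to 20 kb it was 5 of 11 (45.5%, interval 16.7 to 76.6), and the background was 39.8%. At 20 kb or more it was 10 of 11 (90.9%, interval 58.7 to 99.8), and the background was 58.6%; the exception was knrl. The background thus lay within the interval in both shorter bands and just below it in the longest. The part of gene length in the counts was not tested beyond this split.

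**Figure D3:**
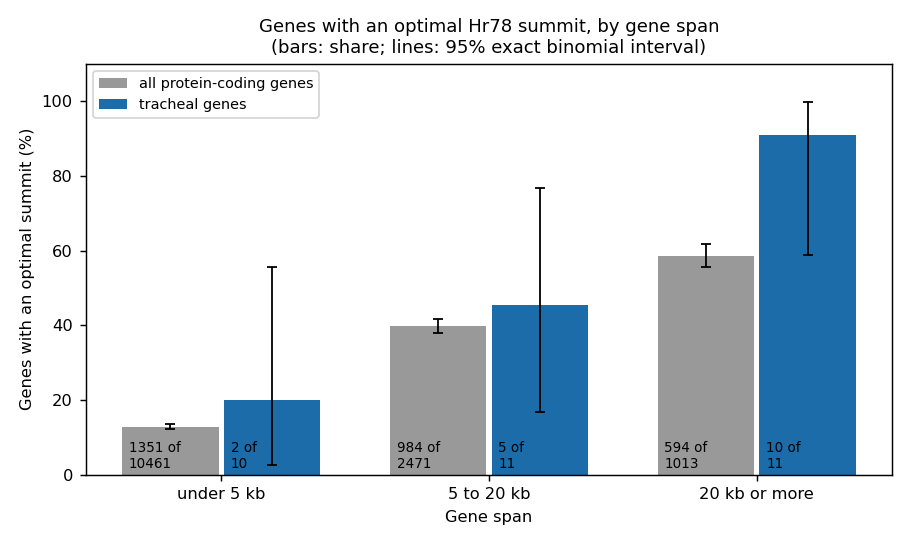
Share of genes with an optimal summit near a start site or inside the gene (bars) with exact 95% intervals (lines), for all protein-coding genes (grey) and the tracheal genes (blue), by gene span. The shares rise with span in both groups, and the wide intervals of the tracheal genes rest on 10 or 11 genes per band.

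Per length, optimal summits were about as dense in the tracheal genes as in other genes. Inside the 623.8 kb of their spans there were 29 optimal summits, 4.65 per 100 kb, and inside the union of all protein-coding genes there were 4132 in 89953 kb, 4.59 per 100 kb. The fate regulators had 6.38, the branching signal genes 6.17 and the matrix genes 3.09 per 100 kb. Individual genes weigh on these class values. Of the 14 summits inside fate regulators, rib held 5, and dpy made up 136.8 kb of the 323.4 kb of matrix genes. Pooled summits were denser in the tracheal genes, 36.7 per 100 kb (229 summits) against 23.7 in all genes. Here the branching signal genes had 58.0, the fate regulators 35.6 and the matrix genes 32.2 per 100 kb. Single genes weigh here too. Of the 50 pooled summits near a start site of a branching signal gene or inside one, bnl held 35, stumps 15 and btl 0. Summits of one gene share a locus, and no interval is given for these densities.

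The replicates held nearly all of these sites, but the optimal list was kept for reproducibility between these same replicates. Presence in both thus follows largely from that selection and is no separate support for the sites. Of the 39 optimal summits, 37 (94.9%) lay inside a peak of both replicates, against 97.0% of all optimal summits, and all 39 had a replicate summit within 200 bp in both. Only 25 of the 39 (64.1%, interval 47.2 to 78.8) lay in the 5723 highest peaks of both replicates, against 78.9% of all. For the 17 bound genes the replicate signals at the highest summit had a Spearman correlation of 0.89, and over the 39 summits it was 0.62. These are descriptions over sites of the same pair of libraries, and only over sites that passed that selection. Where replicate peaks covered a summit, the highest-signal one was used, so 9 of the 39 share a replicate peak with a neighbouring summit. For the weaker summits among those 9, the value can belong to the neighbour, in the 0.62 and in the rank counts that follow. Of the 39, 15 ranked higher in replicate 1, among them 5 of the 6 at branching signal genes, 5 of 19 at fate regulators and 5 of 14 at matrix genes. The 6 were 4 summits of bnl and 2 of stumps. No such share is given for all optimal summits, and a difference between the classes was not tested.

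**Figure D4:**
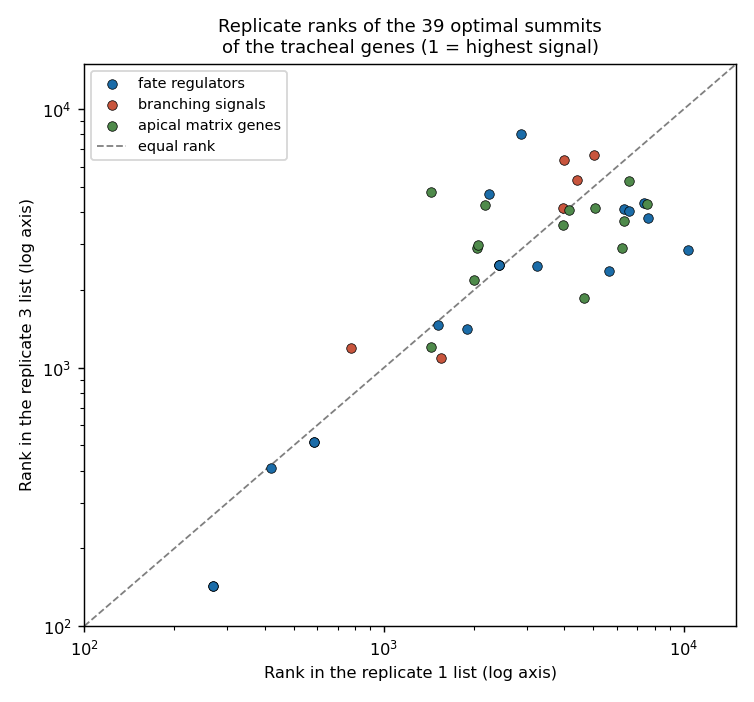
Rank of the 39 optimal summits of the tracheal genes in the replicate 1 list and the replicate 3 list (log axes, 1 is the highest signal), coloured by class, with the line of equal rank. The points of ttk, bs and grh have the lowest rank numbers in both lists, and the scatter widens at ranks beyond 2000. Summits given the same peak in both replicates coincide.

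The hexamers shown in the windows were at a smaller share of these summits than of all optimal summits, with intervals that are wide. AGGTCA, on either strand, was found within 50 bp of 2 of the 39 summits (5.13%, interval 0.627 to 17.3), those of ttk and of bs at 2R:24369686, and within 50 bp of 574 of all 5723 optimal summits (10.03%). Any of the 4 forms, AGGTCA and the related hexamers marked in the windows, was found at 9 of the 39 (23.1%, interval 11.1 to 39.3), against 30.3% of all. In windows of the same 101 bp centred 500 bp away, at higher coordinates, these forms were found at 3 of the 39 (7.69%) and at 12.1% of all. By class the 4 forms were at 3 of 19 summits of fate regulators, 3 of 6 of branching signal genes and 3 of 14 of matrix genes. A direct repeat of 2 such hexamers spaced by 1 base was at none of the 39, which allows a share of up to 9.03% by the exact interval, and at 1.36% of all.

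The sites of 2 tracheal factors were searched in the same windows. TACGTG, the site of Trachealess with Tango, was found at 1 of the 39 summits, in uif, and at 2.50% of all, and in the displaced windows at 2 of 39 (5.13%) and at 2.03% of all. AACCGG, the core of the Grainy head site, was found at 4 of the 39 (10.3%, interval 2.87 to 24.2), against 2.45% of all optimal summits, and in the displaced windows at 0 of 39 and at 2.31% of all. Those 4 were the summits within 100 bp of a start site of bs, dpy and emp and the weaker intronic summit of kkv, so 3 of the 4 were at matrix genes. Over all 39 windows the median GC content was 45.5%, against 42.6% for all optimal summits. The 4 windows with AACCGG had 48.5 to 60.4%, above both medians, and the part of base composition in this share was not tested.

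**Figure D5:**
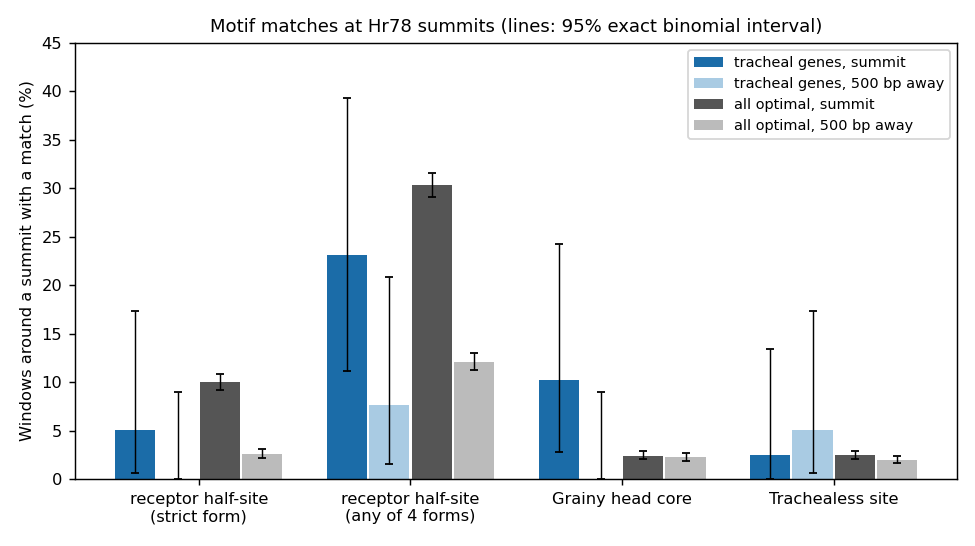
Share of 101 bp windows with a match on either strand to AGGTCA (strict form), to any of the 4 receptor hexamers, to AACCGG and to TACGTG, at the summit and 500 bp away, for the 39 tracheal summits (blue) and all optimal summits (grey), with exact 95% intervals. The tracheal shares of the receptor hexamers lie below those of all optimal summits, that of AACCGG lies above, and every tracheal interval is wide.

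Another 3 lists give the setting of these genes, and their counts stand beside the 21.0% of all protein-coding genes. Of 9 other regulators of tracheal cells, 8 had an optimal summit near a start site or inside the gene, led by pnt (968), the Ets factor downstream of FGF signalling, Blimp-1 (932) and sima (891), the hypoxia factor; exd alone had none. Of 34 other genes of the branching pathways, 23 had one, with fz (1938), Egfr (1804) and Mad (1500) highest. Of 32 other chitin and tube genes, 12 had one, with crb (2076), Cht7 (1022) and Atpalpha (863) highest. The highest of these signals, that of the apical polarity gene crb, exceeded every one of the 32 genes, including ttk. The other regulators had a median span of 21.1 kb, the branching pathway genes 22.6 kb and the chitin and tube genes 8.42 kb. Length thus differs between these lists as well. At 20 kb or more, 5 of 5 other regulators, 15 of 18 branching pathway genes and 2 of 9 chitin and tube genes had an optimal summit. The share of all genes of 20 kb or more was 58.6%.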

How the data were processed

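The samples were 2 biological replicates of 1 line. Per the labels, coordinates are dm6 and sonication gave fragments of 200 to 800 bp. Text records deposited beside the peaks state that calls were made against a control for each replicate and for both jointly, and that the optimal list was thresholded by irreproducible discovery rate. The sources used here name no caller, aligner or threshold. Signal was deposited by the authors on a scale that differs between lists. The deposited −log10 q had 1 value, 4.25, throughout the optimal list and was not used. Summits, deposited as offsets from the region start, were compared with Ensembl release 115 (BDGP 6.54), and sequence came from genome release 6. The 3 classes, the 3 further lists and the motifs were chosen with earlier results of these data known. Every gene of the 3 classes was described, and up to 3 of highest signal were named from each further list. In those lists 2 symbols were not counted, obst-C (Gasp under another name) and wurst (no match), and Mega was matched as pck. Shares have exact (Clopper-Pearson) 95% intervals; no test was run. Alternatives changed the windows, the peak position, the transcripts, the signal limit, close summits and the replicates. The assignment of summits to genes was tested on simulated data. Python 3.11.15, numpy 2.4.6, pandas 2.3.3, scipy 1.17.1 and matplotlib 3.10.9 were used.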

Additional observations from a re-analysis of the deposited data

How the results depend on the processing

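Of 82 alternatives, 77 left the counts within 1.5 times or the shares within their intervals. In the higher-signal part of the optimal list the tracheal genes bound near a start site fell from 15 to 7 (background 9.95%). The bound matrix genes fell from 9 to 5 and the summits from 39 to 15. The genes lost were dys, dpy, Gasp, uif and pnut, leaving 12 bound in all (background 13.6%). That list has fewer peaks by construction. The share of summits found in both replicates was 100% by summits within 200 bp and 64.1% in the highest peaks only. Leaving out a replicate gave 14 to 16 genes bound near a start site (background 16.1 to 17.3%). In all, 15 to 19 were bound (background 20.6 to 21.7%). By class these were 6 fate regulators, 2 branching signal genes and 7 to 11 matrix genes, with 33 to 43 summits. Without replicate 1, verm and serp were gained, and without replicate 3, Gasp and uif were lost. In the pooled list leaving out a replicate gave 28 to 29 genes near a start site (background 38.3 to 42.9%). Genes counted in all were 29 to 30 (background 41.0 to 45.3%). With a replicate left out, AGGTCA was at 3.03 to 4.65% of optimal summits and the 4 forms at 21.2 to 23.3%. The shares moved more with the window. Within 25 bp of the summit AGGTCA was at 2.56% and the 4 forms at 12.8%. Within 100 bp they were at 10.3% and 38.5%. These values stayed inside the intervals of the main setting, which are wide. No paired analysis was possible because there was 1 group. Depth is unknown, so binding weaker than the lists' lowest signals was not detectable, and with 3 to 16 genes a class the exact intervals of the classes overlap.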
